A study of Homo sapiens with 4 samples.

Results

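The distal long arm of chromosome 6 was densely filled with regions where the H3K4me1 signal of LSD2-depleted HepG2 cells exceeded that of control cells. The stretch runs from 107000001 to 161000000 on chromosome 6 (hg19) and held 4608 of the 160601 distinct peaks in the deposited list, 2.87% of them and 37.3% of those on chromosome 6. Its members were chosen by the density of these same peaks. A peak belongs to it if its midpoint lies between those limits, and both limits come from an earlier look at where the density of this list changed. High density along the arm is therefore a description and not a finding, and no test is given here, because widths, spacing and runs come from the same contrast that chose the arm.

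The tested chromatin came from HepG2 cells, a line grown from a human liver tumour, that had received an siRNA against LSD2. Cells with a control siRNA against GL3, a luciferase sequence, served as the control. Each condition gave 1 H3K4me1 ChIP library and 1 input library, 4 samples in all, with no replicate. The authors' peak list sets the knockdown ChIP library over the control ChIP library, and neither input is named in that call. The library names in the file header carry different run names, so run and condition cannot be told apart. The depth of the libraries is unknown. The list gives the place of each peak and no height, so a peak says where the knockdown library exceeded the control and not by how much.

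H3K4me1, a single methyl group on lysine 4 of histone H3, is laid down at enhancers and beside promoters. LSD2, encoded by KDM1B, removes methyl groups from that lysine, and it is known to act within the bodies of transcribed genes. MACS, the program that made the list, scans the genome for places where tags from one library pile up beyond those of the other. A broad domain of H3K4me1 can be returned by such a program as a row of separate short peaks, which is why spacing and runs are described here along with widths.

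The distal long arm of chromosome 6 carries a mixture of liver and general genes. Read along the GRCh38.p14 gene table, genes picked from a list for the arm ran in the order FOXO3, FYN, HDAC2, GJA1, PTPRK, LAMA2, ARG1, CCN2, SGK1, MYB, TNFAIP3, CITED2, UTRN, ESR1, SYNE1, ARID1B, SOD2, IGF2R and LPA. ARG1 encodes the arginase of the urea cycle, and LPA the apolipoprotein(a) of lipoprotein(a). ESR1 encodes an oestrogen receptor, MYB and FOXO3 are transcription factors, TNFAIP3 restrains NF-kappaB signalling, and SOD2 is the superoxide dismutase of mitochondria. PTPRK encodes a receptor phosphatase, LAMA2 a laminin chain and UTRN utrophin, a relative of dystrophin. The table holds 255 protein-coding genes from FOXO3 to LPA. It describes another genome build than the peaks, so no peak or window below is assigned to a gene.

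The arm held 85.3 peaks per Mb (95% Poisson interval 82.9 to 87.8), against 57.3 (57.0 to 57.6) over the 21 other autosomes, a ratio of 1.49. Peaks covered 3.07% of the arm and 1.95% of the other autosomes. The intervals here and below reflect counting error alone, with each peak taken as independent of its neighbours. Every one of the 21 other autosomes was sparser as a whole, from 42.8 peaks per Mb on chromosome 19 to 76.4 on chromosome 2. A stretch picked for its density is set here beside whole chromosomes, so that order follows from the choice. Dense stretches of like kind existed elsewhere: the proximal part of chromosome 14, up to 44 Mb, held 92.2 peaks per Mb, and chromosome 6 before its centromere held 80.6.

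**Figure D1:**
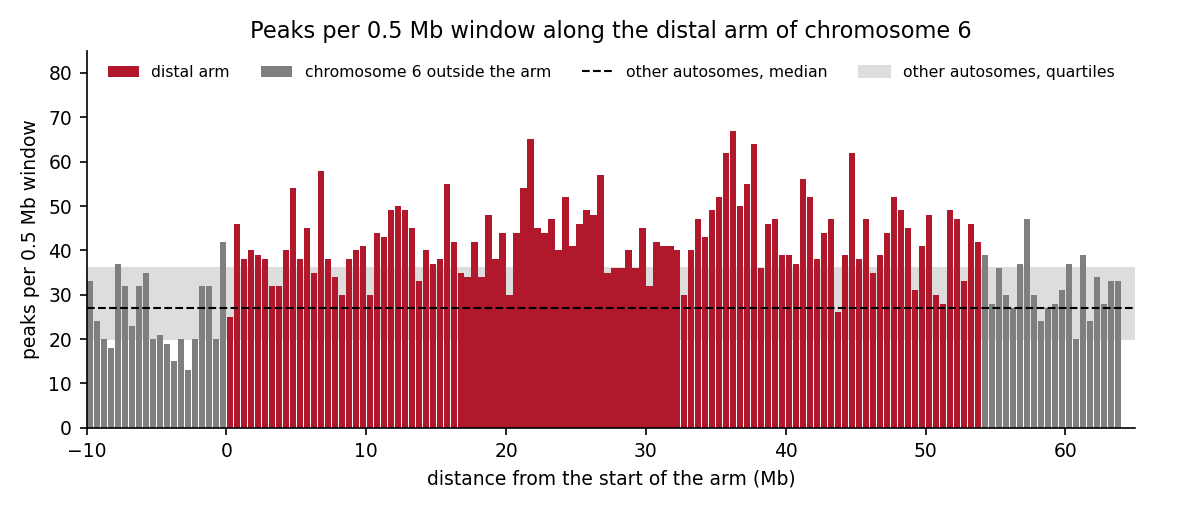
Peaks per 0.5 Mb window (bars) against distance from the start of the arm in Mb, for the arm and for 10 Mb on either side of it on chromosome 6; the dashed line and the band give the median (27) and the quartiles (20 and 36) of the windows of the other autosomes. Windows of the arm run from 25 to 67 peaks, and nearly all of them stand above the dashed line.

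Density was high along the whole arm and not in a few clusters. Windows of 0.5 Mb held 42.7 ± 8.52 peaks in the arm (SD over windows), with a median of 41.5 and quartiles of 37.75 and 47.25. Those of the other autosomes held 28.5 ± 11.3, with a median of 27 and quartiles of 20 and 36. In the arm, 98.1% of windows held more peaks than that median of 27, against 49.97% of the windows elsewhere. The exceptions were 2 windows with 25 and 26 peaks.

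The spread between windows was narrow relative to their mean. The coefficient of variation over windows was 19.96% in the arm and 39.6% over the other autosomes, where single chromosomes ranged from 25.5% (chromosome 20) to 74.2% (chromosome 14). Leaving out the windows beside chromosome ends and peak-free gaps longer than 1 Mb gave 38.7% for the other autosomes and a lowest value of 23.8%. Evenness was not particular to the arm: the last 10.0 Mb of chromosome 6, beyond the arm, varied by 20.2% over its 20 windows at 63.3 peaks per Mb. Under counting error alone, the coefficient of variation falls as the mean rises. The variance divided by the mean of the window counts was 1.70 in the arm, 4.46 over the other autosomes and 1.28 beyond the arm. Chromosomes hold dense and sparse stretches side by side, whereas the arm was cut out for its density, so a smaller spread is partly built into the comparison.

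**Figure D2:**
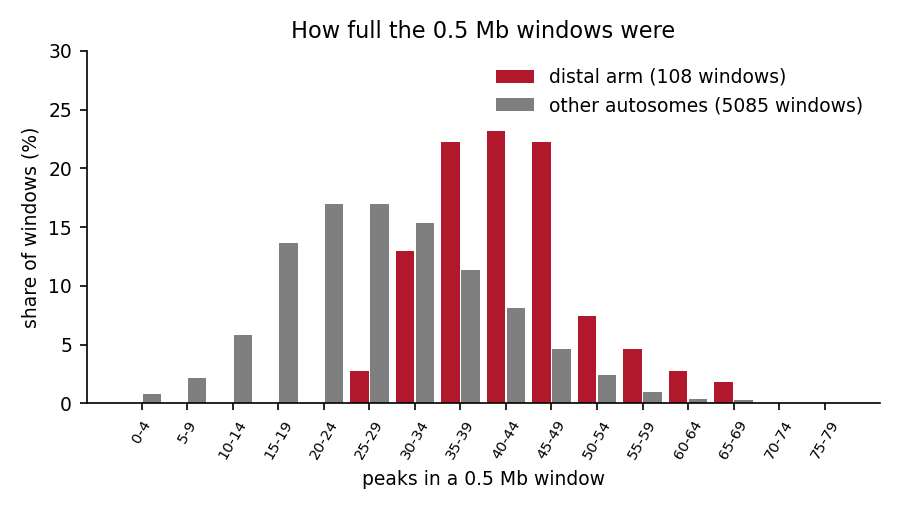
Share of 0.5 Mb windows (%, vertical axis) by the number of peaks they held (horizontal axis, classes of 5), for the distal arm (left bar of each pair) and the other autosomes (right bar). The windows of the arm gather between 30 and 49 peaks, while those elsewhere peak between 20 and 29.

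The limits of the arm differed in sharpness. At the proximal limit, the first window inside, from 107000001 to 107500000, held 25 peaks, fewer than the 42 in the last window outside. Over 5 Mb the order was the other way: the first 5 Mb inside held 76.8 peaks per Mb, and the 5 Mb outside held 46.8. At the distal limit, the last window inside held 42 peaks and the first outside held 39. The last 5 Mb inside held 79.0 peaks per Mb and the next 5 Mb outside 65, so density changed less there. The first member ran from 107000589 to 107001122, and the last peak before it ended at 106995581. The last member ran from 160987525 to 160987811, and the next peak began at 161008561.

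Within the arm, density was highest from 143000001 to 149000000 and lower at both ends. Cut into 9 stretches of 6 Mb, the arm held between 77.8 peaks per Mb in the first (107000001 to 113000000) and 98.0 in the seventh (143000001 to 149000000), with a median of 85.2. The Poisson interval of the seventh stretch was 90.2 to 106.3, and that of the first was 70.9 to 85.2. The eighth and ninth stretches held 85.2 and 81.5 peaks per Mb. The share of peaks 420 bp or wider was lowest in the first stretch, 18.6%, and highest in the last, 26.8%. Median width ranged from 310 bp in the fifth stretch to 344 bp in the last. Every 6 Mb stretch was thus denser than the other autosomes as a whole.

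The 5 fullest windows of 0.5 Mb lay in 3 places. The fullest, from 143000001 to 143500000, held 67 peaks with a median width of 365 bp, which covered 5.47% of the window. The next, from 128500001 to 129000000, held 65 peaks with a median width of 364 bp, of which 25 were 420 bp or wider. The window from 144500001 to 145000000 held 64 peaks. Those from 142500001 to 143000000 and from 151500001 to 152000000 held 62 each. All 5 had median widths above the 326 bp of the arm, from 347.5 to 365 bp, and covered between 5.25 and 5.67% of their bases. On the other autosomes 26 of 5085 windows, 0.511%, held 62 peaks or more, against 4.63% of the windows of the arm. Those 26 were spread over 11 chromosomes, with 10 on chromosome 2, 4 on chromosome 14 and 3 on chromosome 10. The cut of 62 was the lowest count among the 5 fullest windows of the arm, and the arm was chosen for its density. A higher share in the arm is therefore built into this comparison. Chromosome 6 before the centromere, which is not among the 5085 windows, also passed the cut, with windows of 74 and 64 peaks.

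The fullest windows were filled in different ways. In the window from 144500001 to 145000000, 39 of its 64 peaks lay in runs of 3 or more peaks separated by at most 5 kb, and its median gap was 3.95 kb. In the window from 143000001 to 143500000, 27 of 67 peaks did, the median gap was 5.67 kb, and no 3 peaks lay within 1 kb of each other in a row. Each of the 5 windows also held a gap of at least 35.8 kb. The longest was 58.4 kb, from 142548184 to 142606581, in the window from 142500001 to 143000000.

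A block of 2.5 Mb from 142500001 to 145000000 joined 3 of the 5 fullest windows. Its 5 windows held 62, 67, 50, 55 and 64 peaks, 298 in all, or 119.2 per Mb (106.0 to 133.5). The block made up 4.63% of the arm and held 6.47% of its peaks. In it, 51.7% of the peaks lay in runs and 31.5% were 420 bp or wider. The fullest 2.5 Mb on the other autosomes, on the same grid, held 294 peaks, on chromosome 14 from 29000001 to 31500000. The fullest on the rest of chromosome 6 held 264, from 55000001 to 57500000. The block was singled out after its counts were seen. The order of the first pair is not firm: when peaks within 1 kb were merged, the block held 244 and the fullest 2.5 Mb of the other autosomes held 245.

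The emptiest windows of the arm held about as many peaks as the median window elsewhere. They lay from 107000001 to 107500000 (25 peaks), from 150500001 to 151000000 (26 peaks) and from 158000001 to 158500000 (28 peaks). Their peaks were narrow, with median widths of 269, 247 and 260.5 bp. The window at 150500001 had no run of 3 peaks within 5 kb, and 1 of its 26 peaks reached 420 bp. On the other autosomes 39.4% of windows held fewer peaks than the emptiest window of the arm.

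Peaks of the arm were slightly wider than those of the other autosomes. Their median width was 326 bp (order-statistic interval 322 to 331) with quartiles of 237 and 408 bp, against 316 bp (315 to 317) with quartiles of 229 and 396 bp. Widths ran from 147 to 2950 bp. The share of peaks 420 bp or wider was 21.6% (95% Wilson interval 20.5 to 22.8%) in the arm and 17.8% (17.6 to 18.0%) elsewhere. Other dense stretches had more wide peaks than the arm: chromosome 6 before the centromere had 24.4% and a median width of 331 bp, and proximal chromosome 14 had 25.3% and 328 bp. The share narrower than 200 bp was 15.5% in the arm and 16.9% elsewhere. Single autosomes had median widths between 306 and 334 bp; 17 of the 21 were below the arm, 2 equal to it and 2 above it.

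**Figure D3:**
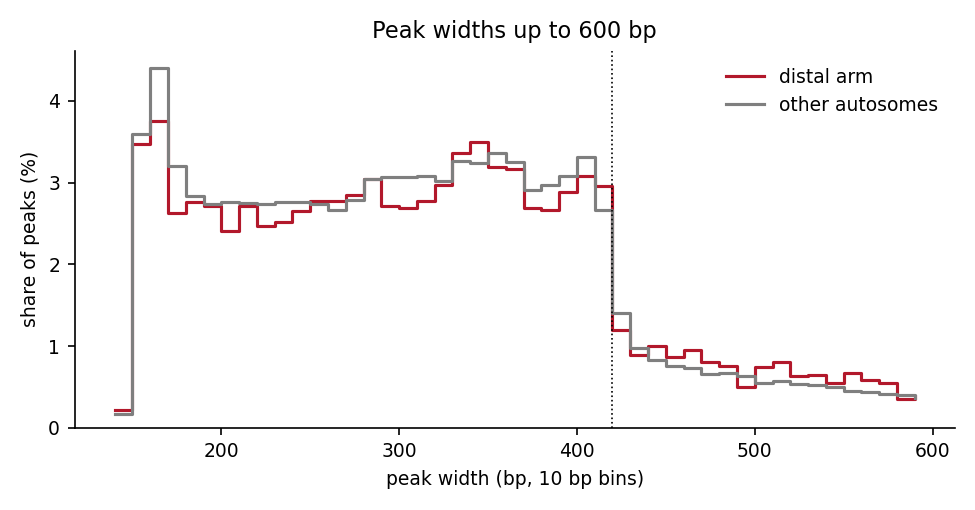
Share of peaks (%, vertical axis) by width in bins of 10 bp (horizontal axis, narrower widths only) in the distal arm and the other autosomes; the dotted line marks 420 bp. Both lines have their fullest bin at 160 to 169 bp, with 3.75% of the peaks of the arm and 4.40% elsewhere, and both drop at 420 bp.

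The shape of the width distribution was shared. The arm and the other autosomes had the same fullest bin, 160 to 169 bp, and both distributions dropped at 420 bp. In the arm 136 peaks measured 410 to 419 bp, and 55 measured 420 to 429 bp. The difference between the arm and the other autosomes was thus one of proportions, with a smaller narrow mode and more peaks past the drop.

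Widths followed how full a window was, in the arm and outside it. In windows with 30 to 39 peaks, the median width was 319 bp in the arm (308 to 327) and 320 bp elsewhere (318 to 321). With 40 to 49 peaks it was 328 bp in the arm (321 to 334) and 331 bp elsewhere (329 to 333), and with 50 or more 340 bp (328 to 352) and 334 bp (331 to 337). In these 3 classes equally full windows had median widths within 6 bp of each other. The sparsest class differed: the 79 peaks of the 3 windows of the arm with fewer than 30 peaks had a median of 256 bp (222 to 296), against 304 bp (302 to 305) elsewhere. The share of peaks 420 bp or wider was 15.5% (13.7 to 17.6%) in the arm and 19.4% (19 to 19.7%) elsewhere in windows with 30 to 39 peaks. It was 22.7% in the arm and 23.5% elsewhere with 40 to 49 peaks, and 28.1% in the arm and 26.4% elsewhere with 50 or more. In windows with 30 to 39 peaks the arm therefore held fewer wide peaks than equally full windows elsewhere, though it held more overall. Across the windows of the arm, peak number and median width had a Pearson r of 0.29 and a Spearman rho of 0.32, given as a description, since both come from the same peaks.

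The arm held 66 peaks of 1 kb or more, 1.43% of its peaks (1.13 to 1.82%), against 0.870% (0.824 to 0.919%) elsewhere. The share was 1.49% on the rest of chromosome 6, 1.52% on chromosome 2 and 3.18% on proximal chromosome 14, and 6 of the 21 other autosomes were above the arm. By length the arm had 12.2 per 10 Mb (95% Poisson interval 9.45 to 15.5), against 4.99 (4.72 to 5.27) on the other autosomes. They were scattered: 38 windows held at least 1, no window held more than 5, and the only window with 5 ran from 132000001 to 132500000. The block of 2.5 Mb held 9 of the 66. The first 6 Mb of the arm held 2, and the sixth stretch (137000001 to 143000000) held 12.

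One peak stood apart in width. The widest member, 2950 bp, ran from 119641343 to 119644292 and had no neighbour within 18 kb on either side, with gaps of 19.9 and 18.1 kb. On the other autosomes 3 peaks were wider. The next widest members were 1880 bp (142643100 to 142644979), 1845 bp (107777704 to 107779548), 1631 bp (129998330 to 129999960) and 1583 bp (144650086 to 144651668). The remaining 5 of the 10 widest measured between 1455 and 1571 bp. Of these 10 peaks, 4 lay in the block of 2.5 Mb.

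Peaks of the arm were more closely spaced than those of the other autosomes as a whole, as their density requires. The gap between neighbours had a median of 7.43 kb (7.06 to 7.80 kb) with quartiles of 2.61 and 15.5 kb, against 10.1 kb (10.1 to 10.2 kb) with quartiles of 3.59 and 22.5 kb on the other autosomes. Other dense stretches were alike, with a median of 6.48 kb on proximal chromosome 14 and 7.66 kb on chromosome 6 before the centromere. The next peak followed within 5 kb for 39.6% of gaps in the arm and 31.7% elsewhere, and within 1 kb for 12.7% in the arm and 9.68% elsewhere. Gaps of the arm were shorter at every percentile compared, and most so at the long end: the gap elsewhere was 1.37 times that of the arm at the median and 1.69 times at the 99th percentile.

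Long gaps were rare in the arm, as in other dense stretches. Gaps over 50 kb numbered 90, or 16.7 per 10 Mb, against 38.3 per 10 Mb on the other autosomes. Proximal chromosome 14 had 14.5 per 10 Mb, and chromosome 6 before the centromere had 18.0. Only 2 gaps of the arm exceeded 100 kb, or 0.370 per 10 Mb against 5.73 per 10 Mb elsewhere. Counts for the other autosomes include peak-free gaps longer than 1 Mb, up to 21146.8 kb, which their length leaves out. The arm held no gap of that size. Its longest gap was 103.775 kb, from 159676582 to 159780356, and the next was 103.773 kb, from 107184735 to 107288507, in the emptiest window. The following 3 measured 97.0 kb (157542442 to 157639450), 90.1 kb (111025208 to 111115330) and 88.7 kb (135106463 to 135195122). The ratio of the median to the mean gap, which stays the same when all gaps shrink alike, was 0.654 in the arm and 0.593 elsewhere, and between 0.454 and 0.632 on single autosomes. It was 0.657 on chromosome 6 beyond the arm and 0.636 before the centromere, so the value of the arm was not particular to it.

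**Figure D4:**
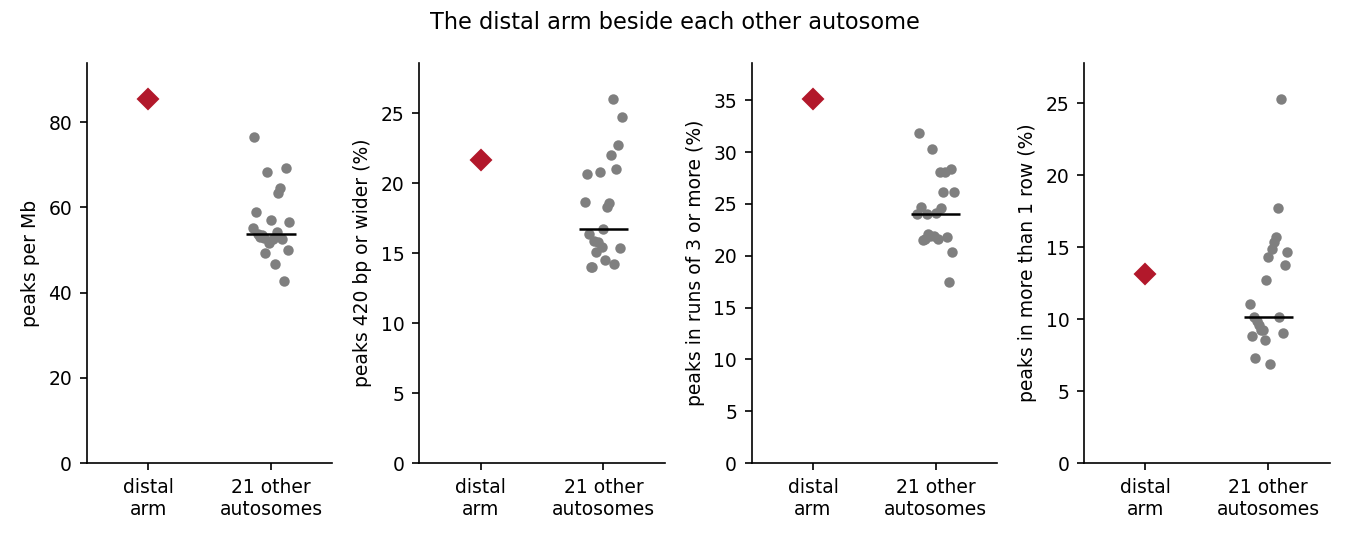
Each panel sets the distal arm (diamond, left) beside the 21 other autosomes (points, right, with their median as a line): peaks per Mb, share of peaks 420 bp or wider (%), share of peaks in runs of 3 or more separated by at most 5 kb (%), and share of peaks listed in more than 1 row (%). The arm stands above all points for density and runs, and within their range for the other measures.

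Runs of peaks were frequent. With at most 5 kb between neighbours, 1617 members, 35.1% (33.7 to 36.5%), lay in runs of 3 or more, against 25.1% (24.8 to 25.3%) elsewhere. The arm held 432 such runs, 8 per Mb against 3.94 per Mb. Runs of 5 or more numbered 80, or 14.8 per 10 Mb against 5.85 per 10 Mb. Denser stretches give more runs, so the difference is not separate from the density that chose the arm. Proximal chromosome 14 had 39.6% of its peaks in runs, chromosome 6 before the centromere 34.2% and chromosome 2 31.9%. The middle of chromosome 6, between 58 Mb and the arm, had 20.05% at 53.1 peaks per Mb.

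The share of peaks in runs was lower in the proximal stretches of the arm and higher in the distal ones. It was 28.3, 29.8, 31.2 and 32.3% in the first 4 stretches of 6 Mb and 36.1, 38.3, 38.4, 41.9 and 38.0% in the other 5. The eighth stretch, from 149000001 to 155000000, had the highest share with 85.2 peaks per Mb, a density close to that of the whole arm. The share in runs therefore did not simply repeat the order of the densities.

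The longest run held 12 peaks over 28.4 kb, from 154898608 to 154927049. Its peaks measured 310, 349, 297, 254, 384, 322, 353, 1025, 238, 175, 417 and 383 bp in order. Its gaps ran from 176 to 4363 bp, and the peaks covered 15.8% of the run. On the other autosomes 8 runs held 12 peaks or more, the longest 14. The next run held 10 peaks over 26.3 kb (153312204 to 153338514), in a window with 35 peaks, fewer than the median of the arm. Runs of 9 peaks lay from 160449968 to 160468185 and from 151696105 to 151716906.

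The runs differed in how much of their span the peaks took up. The run of 9 peaks at 151696105 had peaks of 317 to 1098 bp, with a median of 721 bp, which covered 32.0% of its 20.8 kb. It lay in the fullest window of its 6 Mb stretch. The run of 9 peaks at 160449968 had peaks of 200 to 453 bp that covered 17.7% of its 18.2 kb. Of the 4 runs of 8 peaks, that with the shortest span, 12.9 kb from 111729168 to 111742044, was covered to 27.2%; a short span by itself raises that share.

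One place held peaks almost end to end. From 142733151 to 142737528, 7 peaks followed each other with gaps of 87, 209, 4, 14, 317 and 139 bp. Their widths were 1571, 518, 404, 305, 182, 276 and 352 bp, and they covered 82.4% of 4.38 kb. With at most 1 kb between neighbours, this was the only run in the arm with more than 4 peaks, and the other autosomes held 1 run as long. It lay within the 2.5 Mb block, and its first peak was among the 10 widest. In all, 230 members (4.99%, 4.40 to 5.66%) lay in 72 such tight runs, against 3.395% (3.30 to 3.49%) of peaks elsewhere. Dense parts came close to the arm: 4.75% on proximal chromosome 14, 4.60% on chromosome 2 and 4.31% on chromosome 6 before the centromere.

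The other tight runs were short. Of the 72, 61 held 3 peaks and 10 held 4. The 4 shortest runs of 4 peaks spanned 2.02 kb (158742105 to 158744127), 2.21 kb (158464821 to 158467030), 2.28 kb (118800091 to 118802366) and 2.45 kb (134609693 to 134612139). The one at 158464821 lay in a window of 28 peaks, among the 3 emptiest, so tight runs were not limited to full windows. Peaks in tight runs had a median width of 345.5 bp (319 to 366), against 325 bp (320 to 331) for members with no neighbour within 1 kb. On the other autosomes these medians were 340 and 313 bp.

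Repeated rows of the file were unevenly spread along the arm. The deposited file writes some peaks in several identical rows, and what a repeat stands for is not given in the sources used here. In the arm, 606 members were written more than once, 13.2% (12.2 to 14.2%), against 10.9% (10.8 to 11.1%) of peaks on the other autosomes. Repeats came in unbroken series, described below, so these intervals and those of the next paragraph are too narrow. Of the 606, 562 stood in 2 rows and 42 in 3. Peaks in 2 rows made up 12.2% of the arm and 9.51% of the other autosomes. For peaks in 3 or more rows the order was the other way, 0.955% in the arm and 1.42% on the other autosomes. The most repeated, from 153985808 to 153986125, stood in 7 rows, and that from 127778709 to 127779028 in 4. The first of those in 3 rows, in order of position, began at 108310784, 108573373 and 109613681.

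A large part of the repeated members lay in 6 Mb. In the fourth stretch, from 125000001 to 131000000, 265 of 533 peaks were repeated, 49.7% (45.5 to 53.95%), and these made up 43.7% of the repeated members. The rest of the arm had 8.37% (7.56 to 9.26%). That stretch was chosen for its high share, and no such stretch was taken out of the other autosomes, so 8.37% and their 10.9% are not like values. The other 8 stretches ranged from 3.66 to 14.2%, and 30 windows of the arm had no repeated peak. The share was 4.89% in the middle of chromosome 6 and 5.38% beyond the arm.

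**Figure D5:**
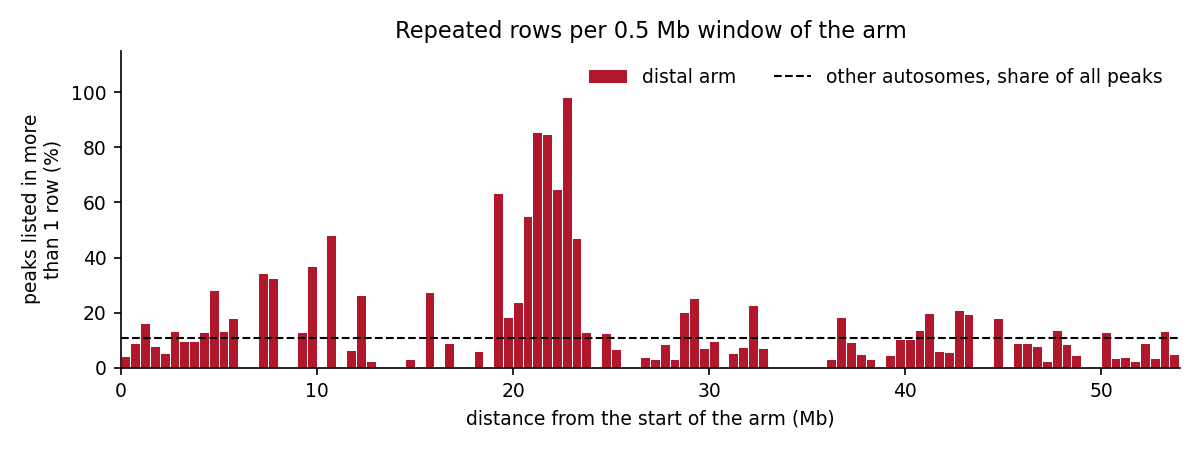
Share of peaks written in more than 1 row (%, vertical axis) in each 0.5 Mb window of the arm, against distance from the start of the arm in Mb; the dashed line gives the share over all peaks of the other autosomes, 10.9%. The 6 windows with over 50% repeated peaks all start between 19 and 23 Mb from the start of the arm and reach 97.7%, while other windows reach 47.7%.

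Repeated peaks came in unbroken series. From 128329223 to 128844999, 75 peaks in a row were written 2 or 3 times each, and from 129202903 to 129873456, 68 did so. The series of 75 was the longest on any autosome, ahead of 43 on chromosomes 13 and 16. A further 24 followed each other from 128035383 to 128243240 and 20 from 114381258 to 114673911. These series were singled out after their values were seen. After a repeated member, the next member was repeated in 73.6% of cases, and after a member written once in 4.0%. The series of 75 crosses from a window with 54 peaks into the second fullest window of the arm, where 55 of 65 peaks were repeated, while the 4 other fullest windows had 0, 2, 3 and 11 repeated peaks. Repeated members had a median width of 342 bp and those written once 324 bp.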

How the data were processed

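H3K4me1 ChIP and input were sequenced from HepG2 cells with LSD2 knockdown and from control cells, 1 library each (4 samples). The submitters' processing notes name BWA and hg19. Per the file header, the authors trimmed reads, removed duplicates and ran MACS with H3K4me1 of LSD2 siRNA cells as treatment and H3K4me1 of GL3 siRNA cells as control. The header sets reads and fragments to 128 bp, the effective genome to 2700000000 bp, the p-value cutoff to 1e-05 and the enrichment factor to 32. It names no version. The deposited values are peak starts and ends, with no score. Library depth is unknown, so the counting intervals do not cover differences between libraries.

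The 180505 deposited rows were reduced to 160601 distinct peaks, none overlapping another, and starts were converted to count from 1. Members are the peaks of chromosome 6 with midpoints from 107 to 161 Mb, in 108 windows of 0.5 Mb filled by midpoint. Windows without a peak were left out elsewhere. Lengths of other chromosomes run from the first to the last peak without peak-free gaps longer than 1 Mb. Runs are 3 or more peaks with gaps of at most 5 kb (tight runs, 1 kb). Intervals (95%) are exact Poisson for densities, Wilson for shares and order-statistic for medians. No test was made, because 1 library per condition allows none. Values were computed with Python 3.11.15, NumPy 2.4.6, pandas 2.3.3 and SciPy 1.17.1, after the steps were tested on simulated data.

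The members and lists were chosen with earlier results of these data known. Regions named are the 5 fullest and 3 emptiest windows, the 10 widest peaks, the 5 longest runs of each kind (ties by shortest span), the 5 longest gaps and the 5 most repeated peaks (ties by position). Alternatives were merged peaks, wider peaks, all rows, other limits, grids, window sizes, gap lengths and comparison sets. Part of the list of gene names for the arm is not reported here. No sequence is shown, since no genome of build hg19 was used here.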

Additional observations from a re-analysis of the deposited data

How the results depend on the processing

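No alternative turned round the density, width, spacing or run difference from the other autosomes. The arm was chosen for its density, and spacing and runs go with density. For density, spacing and runs that outcome was therefore largely built in and is no independent check. The share of repeated peaks was 8.37% without its most repeated 6 Mb stretch, below the 10.9% of the other autosomes. That stretch was chosen for its share and taken out of the arm alone, so a lower value is built in and the turn carries no weight. Also turned round was the lead of the 2.5 Mb block when peaks within 1 kb were merged (244 against 245). Both alternatives were added after the data were seen. Among 52 recomputed values, 28 stayed within the interval of the reported value (for counts, within 1.5-fold). The 28 include the arm's width, spacing, run and repeat values under the comparison with the rest of chromosome 6. That change left the arm itself untouched, so those values could not move. Density in the arm was 74.5 peaks per Mb after merging, 45.3 for peaks no narrower than the median of the list (2446 members) and 97.5 with every row counted. The ratio to the other autosomes was 1.44, 1.58 and 1.51 in these, 1.57 by covered bases and 1.26 against the rest of chromosome 6. Merging gave a median width of 347 bp, 30.7% of peaks at 420 bp or wider, a median gap of 9.0 kb and 22.8% of peaks in runs. Keeping the wider peaks gave a gap of 13.2 kb and 17.8% in runs. The share in runs was 4.99% with gaps up to 1 kb, 64.5% up to 10 kb, 62.8% for runs of 2 or more and 9.98% for 5 or more. The longest run was 7 peaks at 1 kb. The fullest window had 123 rows, and 1.43% of members reached 1 kb. Shifting the limits, the grid or the window size moved no value that far. Leaving out a replicate was not possible either. No paired analysis was possible because there was a single library in every group.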

Other observations

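The last 10.0 Mb of chromosome 6, beyond the arm, held 632 peaks at 63.3 per Mb, with a median width of 315 bp and 15.2% of peaks at 420 bp or wider. The middle of the chromosome held 53.1 peaks per Mb, with a median width of 306.5 bp, 13.1% at 420 bp or wider and 6 peaks of 1 kb or more. On this chromosome the arm therefore lay between stretches with fewer peaks and a smaller share of peaks at 420 bp or wider. Median widths were less distinct: the interval beyond the arm, 301 to 329 bp, overlapped that of the arm, 322 to 331 bp. Fewer peaks on either side follow from how the limits were drawn. The arm had 1.43% of its peaks (1.13 to 1.82%) at 1 kb or more, against 2.27% (1.88 to 2.74%) on chromosome 6 before the centromere, although the arm was the denser with 85.3 peaks per Mb against 80.6.

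Neighbouring windows of the arm were only loosely alike in number, with a Pearson r of 0.21 and a Spearman rho of 0.16 over pairs of adjacent windows, given as a description.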
